A study of Mus musculus with 21 samples.

Results

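Hearts of tumor-bearing mice that were given doxorubicin (DOX) were compared with hearts of tumor-bearing mice that were given normal saline (NS). The comparison covers RNA-seq libraries of bulk heart tissue, 5 labeled tumor+DOX and 6 labeled as tumor alone, called Tumor+DOX and Tumor+NS here. Every one of these mice carried a subcutaneous tumor grown from 4T1 cells, a murine breast cancer line, and per the study's methods DOX was injected intraperitoneally at 5 mg/kg once a week for 3 weeks. A gene entered the comparison if its mean FPKM (counts scaled to gene length and to the total of the library) over the 11 libraries was at least 0.5, which 14170 of the 56691 genes in the deposited table met. Libraries from mice without a tumor, 5 given NS and 5 given DOX, helped to estimate the spread of each gene, and their contrast is set beside the response at the end. Strain, sex and age are not given in the sources used here, and the labels do not say whether each library is 1 animal, so p-values measure the spread between these libraries. A tumor was implanted under the skin rather than in its organ of origin, and 3 weekly doses model a short exposure. Bulk tissue mixes cell types, so a lower level can come from fewer cells of a type or from less RNA per cell, which cannot be told apart.

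DOX is an anthracycline that traps topoisomerase II on DNA and drives redox cycling, and injury to heart muscle limits its use. It also acts on dividing cells, including the precursors of red and white blood cells in bone marrow. In the heart, cardiomyocytes supply most of the RNA, fibroblasts secrete the collagen matrix, and resident and recruited macrophages take up debris and present antigen to T cells.

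By their labels all libraries come from 4T-1, and the data go against that. Across the 11 libraries Myh6, the adult cardiac myosin heavy chain, lay between 14900 and 28100 CPM (TMM-scaled counts relative to the library total), while the epithelial genes Krt8, Krt14, Cdh1 and Epcam were at most 1.44, 0.422, 0.741 and 0.784 CPM. Over all 21 libraries the Y-linked gene Ddx3y read 100 to 223 CPM and Xist at most 2.3 CPM, the pattern of male tissue. Total counts ran from 13521200 to 18601445 per library. Tumor+NS replicate 5 stood apart from the others, with a score of 90.06 on the first principal component (36.9% of the variance) against -31.24 to 17.92 in the other 10 libraries. In that library 83 genes were at least 4-fold above every other library, against at most 1 in any other, and genes of acute stress such as Il6 (99.2 CPM there, at most 1.99 CPM in the other 10), Fosb and Atf3 were among the high ones. Values without it are therefore given beside many of the results. Tumor+NS replicate 6 lay closest of its group to the Tumor+DOX libraries in 306 of the 668 genes that passed the test (45.8%). Neutrophil genes set the tumor-bearing libraries apart from the others, with a summed level of 687 to 6809 CPM in Tumor+NS and 1067 to 4555 CPM in Tumor+DOX against 8.24 to 35.2 CPM in NS. None of the 23 neutrophil genes tested passed edgeR's test between Tumor+DOX and Tumor+NS, 5 had an unadjusted p under 0.05, DESeq2 called 2 and voom with library quality weights 5.

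**Figure D1:**
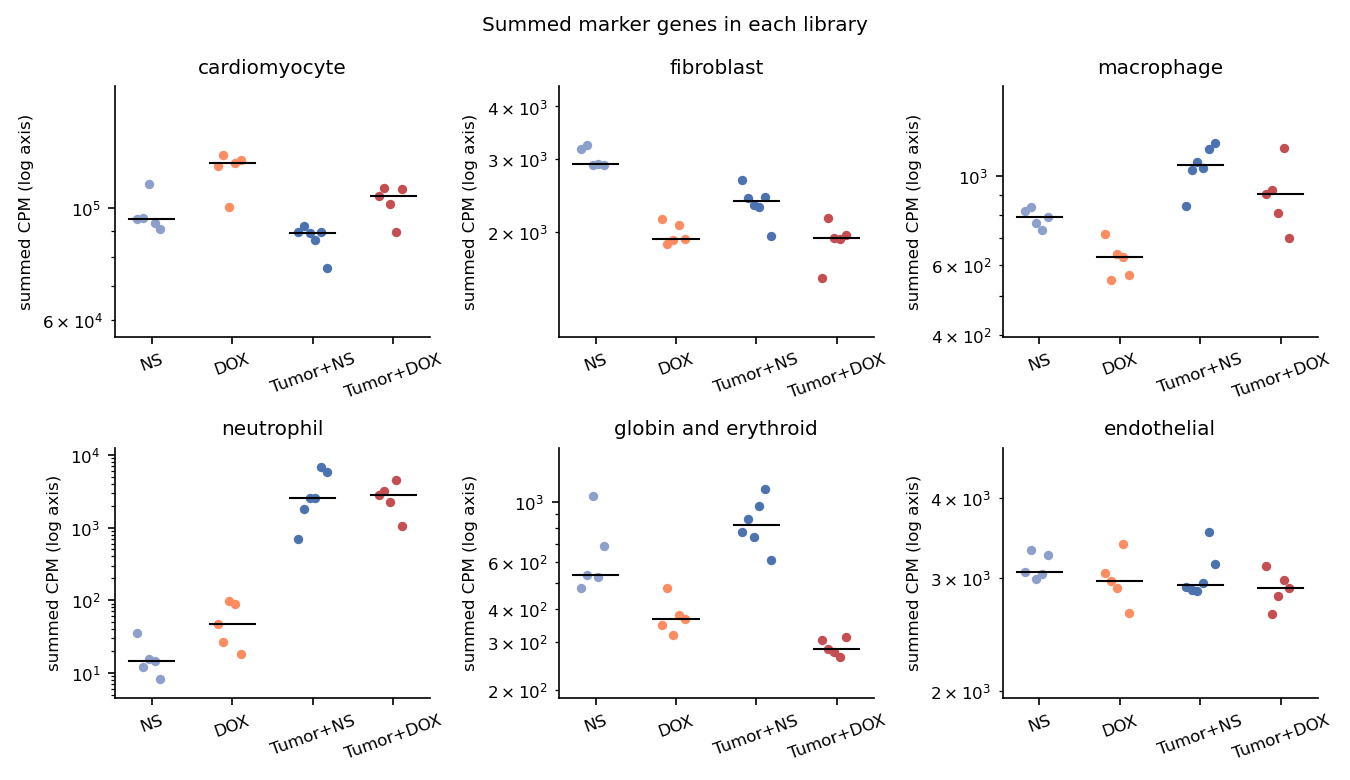
Summed CPM of marker genes for 6 cell types (y axes, log scale) in each of the 21 libraries, 1 point per library, with a bar at the group median. Neutrophil genes stand far higher in both tumor-bearing groups, and the 5 Tumor+DOX libraries (265 to 314 CPM) lie below all 6 Tumor+NS libraries (606 to 1114 CPM) for the globin and erythroid list.

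In edgeR's quasi-likelihood test with Benjamini-Hochberg adjustment, 668 of the 14170 genes (4.71%) had an adjusted p under 0.05 between Tumor+DOX and Tumor+NS. Of these, 292 rose (2.06%) and 376 fell (2.65%) with DOX, and all tested genes together had a median log2 fold change of -0.03, and of 0.0036 without Tumor+NS replicate 5. Differentially expressed genes (DEGs), which also changed at least 2-fold, numbered 154 (1.09%), with 58 higher and 96 lower. Without Tumor+NS replicate 5 the test called 817 genes, 389 higher and 428 lower. The 2 groups of libraries did not overlap in CPM in 698 genes of all those tested (4.93%), and among the called genes in 190 that rose and 194 that fell. Most changes were small, with a median absolute log2 fold change of 0.61 in both directions.

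Genes with large falls included those of red blood cells, of antigen presentation and of the extracellular matrix. Genes that rose included 8 of the sarcomere list and 3 glutathione transferases of the antioxidant list. Among 59 gene lists, the share of called members was highest in the MHC class II list (4 of 5 tested) and the globin and erythroid list (7 of 10), where every called member fell, among lists with at least 5 members tested. The sarcomere and Z-disc list had 8 of 22 members called, all of them higher, with a median log2 fold change of 0.25. Collagen chains had 7 of 23 called, all lower, with a median of -0.60. A fit of the 11 tumor-bearing libraries alone called 345 genes, among them 5 sarcomere genes, 4 collagen chains, 3 matrix proteases or inhibitors (1 higher and 2 lower), 1 TGF-beta or BMP gene, 2 macrophage genes, 3 fatty acid oxidation genes and 3 ion channels.

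**Figure D2:**
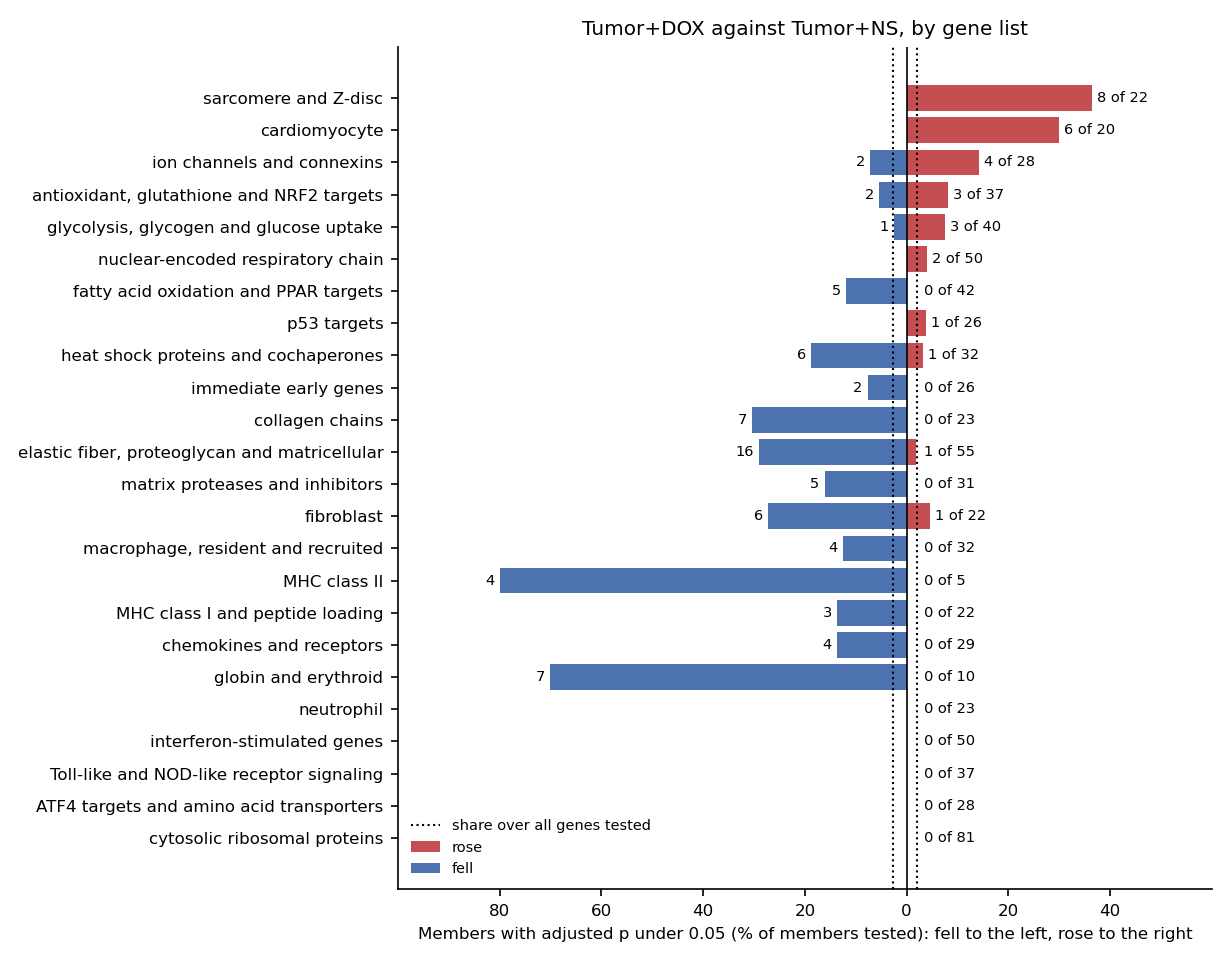
Share of the tested members of 24 gene lists with an adjusted p under 0.05 in Tumor+DOX against Tumor+NS (x axis, percent of members tested, fallen members in blue to the left and risen members in red to the right, with counts beside the bars). Dotted lines mark the shares over all genes tested, 2.65% fallen and 2.06% risen. The longest bars are MHC class II (4 of 5 fell) and globin and erythroid (7 of 10 fell) on the left and sarcomere and Z-disc (8 of 22 rose) on the right.

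Transcripts of red blood cells fell to low levels in the hearts of DOX-treated tumor-bearing mice. Young red cells still carry globin mRNA, so the blood left in heart tissue is one place where it is found. The globin and erythroid list had 7 of 10 tested members lower and none higher, with a median log2 fold change of -3.95. Its most abundant member, Hbb-bs, encodes a beta chain of adult hemoglobin and was listed at chr7:103475741-103477303 (GRCm39 per the submitters' processing notes). Hbb-bs read 224 to 519 CPM (median 338) in Tumor+NS, and 1.17, 4.54, 4.95, 17.8 and 11.2 CPM in Tumor+DOX replicates 1 to 5. All 5 Tumor+DOX libraries were far below the lowest Tumor+NS library, with a log2 fold change of -5.50 ± 0.77 (SE, 5 against 6 libraries, as for every fold change given here) and adjusted p = 0.000456. The alpha globin gene Hba-a1 (chr11:32233511-32234465) read 123 to 261 CPM (median 169) in Tumor+NS and 1.01, 4.18, 3.58, 8.48 and 6.09 CPM in Tumor+DOX, again with no overlap (log2 fold change -5.25 ± 0.70, adjusted p = 0.000341).

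The minor beta globin gene Hbb-bt fell as well, from 10.4 to 24.5 CPM (median 18.2) to 0, 0.363, 0.215, 0.399 and 1.30 CPM (log2 fold change -5.28 ± 0.77, adjusted p = 0.000588). Hba-a2, a near-identical copy of Hba-a1, had 306 counts over the Tumor+NS libraries and 2 over the Tumor+DOX libraries, a ratio of 125 with a 95% counting interval of 34.2 to 1030. Reads of the alpha globin copies can be split or dropped by the counting, so the division between Hba-a1 and Hba-a2 is uncertain. Alas2, the enzyme that starts heme synthesis in erythroid cells, read 10.5 to 25.3 CPM (median 17.0) in Tumor+NS and 0.224, 0.485, 0.143, 2.11 and 0.709 CPM in Tumor+DOX. The groups did not overlap, with Tumor+DOX replicate 4 highest of its group (log2 fold change -4.54 ± 0.55, adjusted p = 0.000135). The mitochondrial iron importer Slc25a37 (mitoferrin), used for heme synthesis but also present in heart muscle, fell by a smaller amount (log2 fold change -0.56 ± 0.11, adjusted p = 0.00559). The summed level of the erythroid list was 606 to 1114 CPM in Tumor+NS and 265 to 314 CPM in Tumor+DOX. In Tumor+DOX the globin genes and Alas2 made up only a small part of that sum, and other members of the list the rest. None of the fallen globin genes or Alas2 lost its call when any 1 of the 11 libraries was left out.

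The promoters of the globin genes that fell are shown because these genes dropped together and share short elements near their start. The windows are the 150 bases before the RefSeq start, on GRCm38.p6, 5′ to 3′ on the gene's strand. Capitals mark CCAAT or its reverse complement ATTGG and the CACCC sequence, each searched on both strands.
Hba-a1 (chr11:32283522-32283671, + strand): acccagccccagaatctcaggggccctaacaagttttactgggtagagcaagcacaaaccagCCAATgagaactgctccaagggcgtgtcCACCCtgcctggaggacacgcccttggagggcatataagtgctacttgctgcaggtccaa
Hba-a2 (chr11:32296342-32296491, + strand): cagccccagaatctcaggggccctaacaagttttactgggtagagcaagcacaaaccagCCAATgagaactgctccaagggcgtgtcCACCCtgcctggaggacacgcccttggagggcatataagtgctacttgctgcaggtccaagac
Hbb-bs (chr7:103827929-103828078, - strand): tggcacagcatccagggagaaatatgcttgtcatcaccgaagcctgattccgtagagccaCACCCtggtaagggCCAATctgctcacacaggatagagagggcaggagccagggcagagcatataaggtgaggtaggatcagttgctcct
Hbb-bt (chr7:103813924-103814073, - strand): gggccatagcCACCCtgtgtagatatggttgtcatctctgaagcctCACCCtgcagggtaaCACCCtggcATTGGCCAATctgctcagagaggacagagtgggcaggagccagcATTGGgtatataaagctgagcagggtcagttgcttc
The Hba-a1 and Hba-a2 windows share an unbroken run of 147 bases, and the longest run shared by Hbb-bs and Hbb-bt is 14 bases. CACCC stood in all 4 windows, once in each except Hbb-bt, which had 3. Of 32851 RefSeq promoter windows of 150 bases, 37.4% held CACCC and 24.5% held CCAAT on either strand, so each match alone is common.

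Genes that present antigen on MHC class II were lower in all Tumor+DOX libraries. Class II molecules are pairs of an alpha and a beta chain that show peptides to helper T cells, and Cd74 is the invariant chain that guards their groove until they reach the endosome. H2-Ea (chr17:34561907-34563618), an alpha chain, read 12.4 to 33.7 CPM (median 27.8) in Tumor+NS and 2.74, 3.21, 3.51, 2.62 and 1.95 CPM in Tumor+DOX. The groups did not overlap (log2 fold change -3.14 ± 0.29, adjusted p = 4.4e-06). Cd74 read 29.6 to 72.3 CPM (median 67.3) in Tumor+NS and 8.66, 11.3, 17.0, 6.89 and 7.92 CPM in Tumor+DOX, also without overlap (log2 fold change -2.48 ± 0.33, adjusted p = 0.000341).

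The beta chain H2-Ab1 fell from 3.23 to 8.91 CPM (median 7.99) to 0.838, 1.33, 1.43, 0.683 and 0.887 CPM (log2 fold change -2.76 ± 0.31, adjusted p = 7.21e-05). H2-Aa, its alpha partner, read 9.51 to 23.2 CPM (median 20.2) in Tumor+NS and 1.9, 1.88, 5.23, 3.42 and 2.31 CPM in Tumor+DOX (log2 fold change -2.62 ± 0.33, adjusted p = 0.000188). H2-Eb1, the partner of H2-Ea, read 7.32 to 18.7 CPM (median 16.4) in Tumor+NS and 0.894, 2.24, 3.30, 1.48 and 1.12 CPM in Tumor+DOX (log2 fold change -3.03 ± 0.48, adjusted p = 0.00157). In each of the 5 genes Tumor+NS replicate 6 was the lowest of its group and still above every Tumor+DOX library. The MHC class II list summed to 54.3 to 128 CPM in Tumor+NS and 13.8 to 29.5 CPM in Tumor+DOX, and the 4 called members kept their call without Tumor+NS replicate 5.

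Promoters of class II genes carry a compact set of boxes to which the class II transactivator is recruited, which is why those of H2-Aa and H2-Eb1 are shown. H2-Ab1 and H2-Ea were not matched. The windows are again the 150 bases before the RefSeq start on GRCm38.p6, with capitals for CCAAT or ATTGG (the Y box core) and for GCAACNGAT (an X box core), searched on both strands.
H2-Aa (chr17:34287824-34287973, - strand): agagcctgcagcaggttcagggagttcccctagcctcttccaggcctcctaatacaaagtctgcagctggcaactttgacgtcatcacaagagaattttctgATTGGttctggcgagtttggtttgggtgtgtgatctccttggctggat
H2-Eb1 (chr17:34305717-34305866, + strand): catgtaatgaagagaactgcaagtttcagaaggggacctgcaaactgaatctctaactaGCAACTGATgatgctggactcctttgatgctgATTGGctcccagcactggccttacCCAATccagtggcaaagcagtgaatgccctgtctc
The X box letters were found in 1 of the 2 windows, H2-Eb1, and in 67 of the 32851 promoter windows (0.204%), and ATTGG in both at 48 and 59 bases before the start. CCAAT or ATTGG was present in 24.5% of all windows.

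Of 5 dendritic cell genes tested 1 fell, with 3 positive and 2 negative fold changes and a median log2 fold change of 0.01 (-0.15 without Tumor+NS replicate 5). The fallen one, Mgl2, a lectin also found on alternatively activated macrophages, read 1.67 to 10.7 CPM (median 6.10) in Tumor+NS and 0.894, 1.45, 2.94, 0.570 and 1.48 CPM in Tumor+DOX. Those groups overlapped only through Tumor+NS replicate 6 (log2 fold change -2.01 ± 0.41, adjusted p = 0.00806). Of 32 macrophage genes tested 4 fell and 0 rose (12.5% called, beside 4.71% of all genes), with a median log2 fold change of -0.37. These were Ccr2, the receptor that draws monocytes to inflamed tissue (log2 fold change -1.30 ± 0.27, adjusted p = 0.00903), Adgre1, which encodes the F4/80 antigen (log2 fold change -0.95 ± 0.23, adjusted p = 0.0191), Csf1r, the receptor for a macrophage growth factor (log2 fold change -0.55 ± 0.15, adjusted p = 0.0344), and Folr2, a marker of resident macrophages (log2 fold change -1.15 ± 0.32, adjusted p = 0.042). The summed macrophage list overlapped between groups, with 844 to 1216 CPM in Tumor+NS and 701 to 1182 CPM in Tumor+DOX, and Lyz2, its most abundant member, did not pass the test (log2 fold change -0.28 ± 0.17, adjusted p = 0.376). The part of cell numbers in these falls was not tested.

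Of 29 chemokines and receptors tested, 4 fell and 0 rose (13.8% called, beside 4.71% of all genes). Ccl21a, a lymphatic chemokine that guides dendritic cells and T cells, read 16.6 to 31.6 CPM (median 23.8) in Tumor+NS and 9.05, 6.48, 12.2, 11.7 and 11.6 CPM in Tumor+DOX, with no overlap (log2 fold change -1.22 ± 0.20, adjusted p = 0.00212). Ackr4, a scavenger of that chemokine, fell (log2 fold change -1.98 ± 0.43, adjusted p = 0.0127). The median of the list was -0.57 with all libraries and -0.16 without Tumor+NS replicate 5. Of 6 B cell genes tested, Ighm, the heavy chain of IgM (log2 fold change -1.76 ± 0.29, adjusted p = 0.00197), and Igkc, the kappa light chain (log2 fold change -2.03 ± 0.57, adjusted p = 0.0422), fell, and Igkc lost its call without Tumor+NS replicate 5 (adjusted p = 0.0765). Chosen after their values were seen, the alternative macrophage gene Retnla (log2 fold change -3.55 ± 0.74, adjusted p = 0.0094) and the costimulatory gene Cd86 (log2 fold change -1.09 ± 0.28, adjusted p = 0.0321) were also lower, and Cd86 had an adjusted p of 0.0565 without that library.

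Of 22 class I and peptide-loading genes 3 fell and 0 rose (13.6% called, beside 4.71% of all genes), namely Tapbp (log2 fold change -0.42 ± 0.10, adjusted p = 0.0221), Calr (log2 fold change -0.67 ± 0.12, adjusted p = 0.00442) and Pdia3 (log2 fold change -0.48 ± 0.11, adjusted p = 0.0184), and Calr and Pdia3 also fold proteins in the endoplasmic reticulum in general. B2m, the light chain of class I molecules and the most abundant member, had a log2 fold change of -0.22 and an adjusted p of 0.528. None of 50 interferon-stimulated genes passed edgeR's test, 6 had an unadjusted p under 0.05, DESeq2 called 2 and voom with library quality weights, which called 2486 of all 14170 genes, called 13. EdgeR called 3, all lower, without Tumor+NS replicate 5. Of the 50, 44 had negative and 6 positive fold changes, with a median of -0.33, and Isg15, a ubiquitin-like modifier, had -0.54 (adjusted p = 0.494).

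Genes of the extracellular matrix, which fibroblasts secrete, fell in several families. Col3a1, a fibrillar collagen of compliant tissue, read 92.6 to 227 CPM (median 149) in Tumor+NS and 23.6, 22.5, 38.1, 89.3 and 49.8 CPM in Tumor+DOX. Its groups came close but did not overlap, with Tumor+DOX replicate 4 just under the lowest Tumor+NS library (log2 fold change -1.80 ± 0.44, adjusted p = 0.0233). Col1a2, a chain of type I collagen, read 67.0 to 136 CPM (median 92.3) in Tumor+NS and 39.95, 42.4, 47.8, 68.6 and 50.7 CPM in Tumor+DOX, where replicate 4 overlapped the lowest Tumor+NS library (log2 fold change -1.0 ± 0.22, adjusted p = 0.0132). Its partner chain Col1a1 missed the threshold (log2 fold change -0.85 ± 0.25, adjusted p = 0.0563), and without Tumor+NS replicate 5 its adjusted p was 0.0204. Col8a1 (log2 fold change -1.11 ± 0.21, adjusted p = 0.00559) and Col18a1 (log2 fold change -0.80 ± 0.18, adjusted p = 0.0167), a basement membrane collagen, fell as well. The most abundant collagen, Col4a1 of basement membranes, stood at 886 CPM in Tumor+NS replicate 5 and did not pass the test (log2 fold change -0.68 ± 0.27, adjusted p = 0.145, and -0.19 with adjusted p = 0.402 without that library).

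Of 55 elastic fiber, proteoglycan and matricellular genes, 16 fell and 1 rose (30.9% called, beside 4.71% of all genes). The median log2 fold change was -0.38. Lum, a proteoglycan that spaces collagen fibrils, read 80.8 to 142 CPM (median 116) in Tumor+NS and 39.4, 50.4, 58.8, 61.3 and 60.3 CPM in Tumor+DOX, with no overlap (log2 fold change -1.08 ± 0.20, adjusted p = 0.00425). Sparc, a matricellular protein that binds collagen, fell from 252 to 366 CPM (median 316) to 189.8, 139.6, 168, 230.5 and 132 CPM (log2 fold change -0.85 ± 0.14, adjusted p = 0.00182). Serpinh1, the chaperone of procollagen, fell (log2 fold change -1.09 ± 0.19, adjusted p = 0.00246), and so did Smoc2 (log2 fold change -0.94 ± 0.16, adjusted p = 0.00195) and the elastic fiber protein Mfap4 (log2 fold change -1.63 ± 0.39, adjusted p = 0.0204). Thbs2, a thrombospondin, was the member that rose, from 17.3 to 40.8 CPM (median 28.2) to 48.5, 67.0, 64.2, 51.6 and 61.1 CPM with no overlap (log2 fold change 1.00 ± 0.22, adjusted p = 0.0132).

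Among matrix proteases and inhibitors 5 of 31 fell (16.1% called, beside 4.71% of all genes). Without Tumor+NS replicate 5, 2 fell and the list median went from -0.23 to 0.01. Those that fell both with and without that library were Adamtsl2, a binding partner of microfibrils (log2 fold change -1.51 ± 0.25, adjusted p = 0.00195) and the collagen-processing protease Adamts2 (log2 fold change -0.65 ± 0.16, adjusted p = 0.0207). Itgb6, the beta chain of an integrin that activates latent TGF-beta, read 2.53 to 25.7 CPM (median 10.97) in Tumor+NS and 3.35, 4.06, 2.87, 2.16 and 3.72 CPM in Tumor+DOX. Its lowest Tumor+NS library was replicate 5, inside the Tumor+DOX range (log2 fold change -1.87 ± 0.48, adjusted p = 0.0292). In the fit of the 11 tumor-bearing libraries alone Itgb6 was not called. Of 34 TGF-beta and BMP genes 3 fell and 0 rose (8.82% called, beside 4.71% of all genes), with a median of -0.30, against 2 fallen and a median of -0.17 without Tumor+NS replicate 5. Of 22 fibroblast genes 6 fell and 1, Scara5, rose (log2 fold change 0.45 ± 0.12, adjusted p = 0.0342), and Col1a2, Col3a1, Lum and Mfap4 above are among the fallen. The summed fibroblast level was 1954 to 2672 CPM in Tumor+NS and 1552 to 2159 CPM in Tumor+DOX, but all 6 fallen members are matrix genes themselves. The 13 fibroblast genes that are in no matrix list summed to 790.4 to 1196 CPM in Tumor+NS and 744 to 1094 CPM in Tumor+DOX, with 1 called, the risen Scara5, and a median log2 fold change of -0.38. The part of fibroblast numbers in the fall of matrix genes was not tested.

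Some genes that serve the folding and export of secreted proteins were looked at after their values were seen, and as no list of such genes was tested they stand for themselves alone. Pdia6, a disulfide isomerase of the endoplasmic reticulum, read 55.4 to 79.5 CPM (median 72.5) in Tumor+NS and 38.5, 45.6, 47.2, 44.1 and 43.0 CPM in Tumor+DOX, with no overlap (log2 fold change -0.70 ± 0.09, adjusted p = 0.000135). The lectin chaperone Canx (log2 fold change -0.43 ± 0.07, adjusted p = 0.00182), the isomerases Pdia4 (log2 fold change -0.56 ± 0.13, adjusted p = 0.0187) and Txndc5 (log2 fold change -0.54 ± 0.12, adjusted p = 0.0171), the signal peptidase subunit Spcs3 (log2 fold change -0.53 ± 0.11, adjusted p = 0.00903) and the translocon protein Ssr1 (log2 fold change -0.44 ± 0.10, adjusted p = 0.0141) fell too. Hspa5, the chaperone that marks the unfolded protein response, did not pass the test (log2 fold change -0.29 ± 0.12, adjusted p = 0.19).

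Of 32 heat shock proteins and cochaperones 6 fell and 1 rose (21.9% called, beside 4.71% of all genes). The median log2 fold change was -0.39 with all libraries and -0.34 without Tumor+NS replicate 5. The counts were 6 and 1 without that library as well, and 2 and 1 in a fit of the 11 tumor-bearing libraries alone. Hsph1, a large chaperone of the Hsp110 family, read 23.2 to 129.7 CPM (median 55.8) in Tumor+NS and 22.4, 22.96, 20.8, 16.1 and 27.5 CPM in Tumor+DOX, and 1 Tumor+NS library, replicate 6, lay inside the Tumor+DOX range (log2 fold change -1.58 ± 0.29, adjusted p = 0.00443). Hsp90aa1, the inducible Hsp90, fell (log2 fold change -0.99 ± 0.24, adjusted p = 0.0207). Hspa1a, the inducible Hsp70, read 108 CPM in Tumor+NS replicate 5 and 1.87 to 11.3 CPM in the other 5 libraries of its group. Its log2 fold change went from -3.27 (adjusted p = 0.037) to -1.10 (adjusted p = 0.189) without that library. Hsbp1l1, related by name to a binding protein of heat shock factor, rose from 0.454 to 1.69 CPM (median 0.952) to 3.85, 2.30, 4.30, 2.28 and 3.02 CPM, with no overlap (log2 fold change 1.55 ± 0.29, adjusted p = 0.00456).

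Immediate early genes, which tissue switches on within minutes of a stimulus, depended on that library. Of 26 tested, 25 had a negative log2 fold change and the median was -0.65 with all libraries, and 0.02 without Tumor+NS replicate 5. Fosb, a partner in the AP-1 factor, read 104 CPM in that library and at most 2.71 CPM in the other 10. Its log2 fold change of -4.89 (adjusted p = 0.0388) became -0.99 (adjusted p = 0.488) without it. Otud1, a deubiquitinase, read 1116 CPM in that library and 22.3 to 38.4 CPM in the others of its group. Without it the log2 fold change of Otud1 was -1.06 against -3.87 with it, and the call held (adjusted p = 0.0288 against 0.0197). Ccn1, a secreted matricellular protein, had a log2 fold change of -3.04 with and -1.26 without the library (adjusted p = 0.0167 and 0.01), and its remaining Tumor+NS libraries, at 29.3 to 46.0 CPM, lay above all 5 Tumor+DOX libraries at 12.4 to 18.8 CPM.

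**Figure D3:**
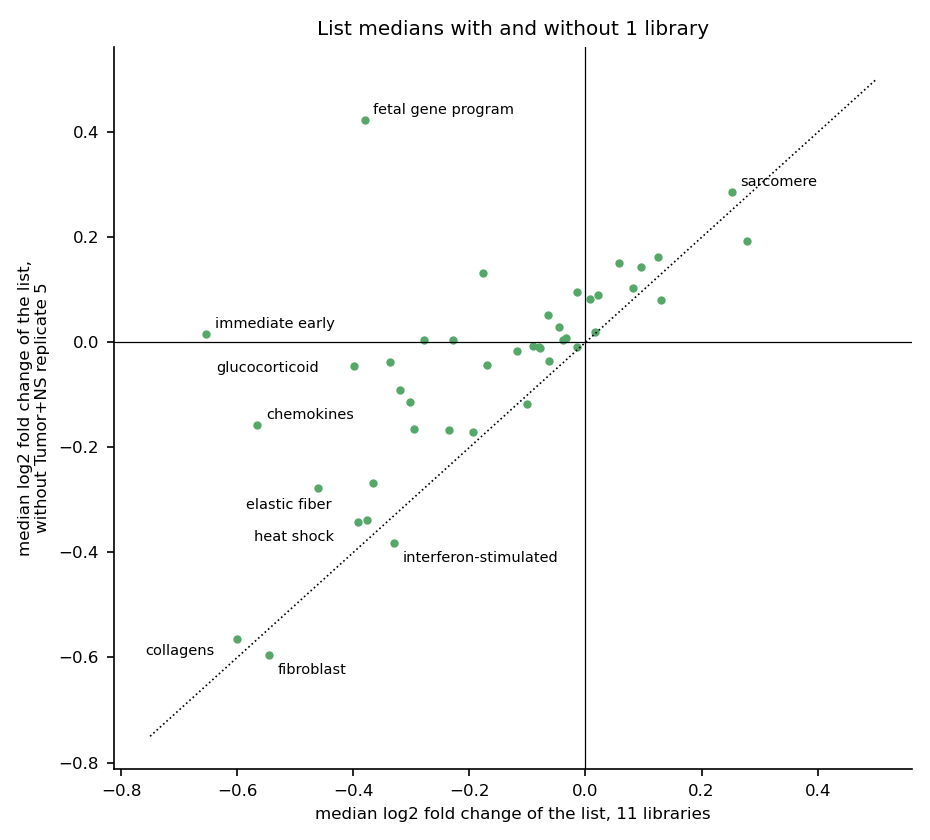
Median log2 fold change of gene lists in Tumor+DOX against Tumor+NS with all 11 libraries (x axis) and without Tumor+NS replicate 5 (y axis), 1 point per list with at least 10 genes tested and a median above -1.5 (globin and erythroid lies outside the axes). Lists on the dotted line did not move. Immediate early genes moved from -0.65 to 0.02 and the natriuretic peptide and fetal gene program from -0.38 to 0.42, while collagens and fibroblast genes stayed near the line.

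Of 22 sarcomere and Z-disc genes 8 rose, by modest amounts, under each of the 3 scalings tried. That was 36.4% of the list, beside 4.71% of all genes called. In the fit of the 11 tumor-bearing libraries alone 5 rose. Tnnt2, cardiac troponin T, read 9724 to 14070 CPM (median 11190) in Tumor+NS and 20500, 21040, 17710, 18450 and 20670 CPM in Tumor+DOX. Every Tumor+DOX library was above every Tumor+NS library (log2 fold change 0.76 ± 0.13, adjusted p = 0.00246). Myh6 read 14860 to 21690 CPM (median 20080) in Tumor+NS and 26560, 27620, 28050, 22270 and 26230 CPM in Tumor+DOX, also with no overlap (log2 fold change 0.41 ± 0.10, adjusted p = 0.0225). The M-line protein Myom2 rose by a larger amount (log2 fold change 0.87 ± 0.21, adjusted p = 0.0191), with the lowest value of 628 CPM in Tumor+NS replicate 5, and the Z-disc proteins Actn2 (log2 fold change 0.39 ± 0.09, adjusted p = 0.0184) and Ldb3 (log2 fold change 0.40 ± 0.09, adjusted p = 0.012) rose. Chosen after their values were seen, Myl3, Mybpc3 and Myom1 rose with log2 fold changes of 0.39, 0.47 and 0.45. The summed cardiomyocyte list was 75870 to 91820 CPM in Tumor+NS and 89440 to 109200 CPM in Tumor+DOX, and CPM is a share of the library, so a rise of abundant genes is relative to the rest. With library totals in place of TMM scaling the log2 fold changes of Tnnt2 and Myh6 were 0.77 and 0.43.

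The fetal gene program, which stressed adult hearts switch on, gave 1 called gene among 14 (7.14%, beside 4.71% of all genes), and 2 without Tumor+NS replicate 5. Nppa, the atrial natriuretic peptide, read 54.8 to 216 CPM (median 78.9) in Tumor+NS and 134, 512, 253, 127 and 519 CPM in Tumor+DOX. The groups overlapped through Tumor+NS replicate 2 at 216 CPM (log2 fold change 1.64 ± 0.39, adjusted p = 0.0184). In the fit of the 11 tumor-bearing libraries alone Nppa was not called. Of 14 genes of the atrial chamber, Nppa among them, 11 had positive fold changes, with a median of 0.28, and their summed level was 1080 to 1439 CPM in Tumor+NS and 1326 to 2156 CPM in Tumor+DOX. Without Nppa the other 13 summed to 1012 to 1220 CPM in Tumor+NS and 1197 to 1634 CPM in Tumor+DOX. The libraries highest in Nppa, Tumor+DOX replicates 2 and 5, were also highest in that sum, at 1527 and 1634 CPM, and the part of atrial tissue in the rise of Nppa was not tested. Nppb, the B-type natriuretic peptide, did not pass the test, with 997 CPM in Tumor+NS replicate 5 and 501 CPM in Tumor+DOX replicate 5 as the highest of each group (log2 fold change -0.36 ± 0.57, adjusted p = 0.769). Without Tumor+NS replicate 5 the log2 fold change of Nppb was 0.72 (adjusted p = 0.34). Myh7, the slow myosin heavy chain, read 624.8 to 3085 CPM (median 759) in Tumor+NS and 1527, 1723, 1456, 2838 and 3032 CPM in Tumor+DOX, and its highest library of all was Tumor+NS replicate 6 (log2 fold change 0.91 ± 0.35, adjusted p = 0.144). The muscle creatine kinase Ckm (log2 fold change 0.09 ± 0.13, adjusted p = 0.743) and the brain form Ckb (log2 fold change 0.03 ± 0.13, adjusted p = 0.915) did not pass, and Gatm, which makes the precursor of creatine, fell (log2 fold change -1.03 ± 0.20, adjusted p = 0.00483).

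None of 21 calcium handling genes passed edgeR's test, with a median log2 fold change of 0.02, while 3 had an unadjusted p under 0.05, DESeq2 called 1 and voom with library quality weights 2. The calcium pump Atp2a2 read 8850 to 10570 CPM (median 10340) in Tumor+NS and 9867, 8519, 7689, 7632 and 8356 CPM in Tumor+DOX, where the groups overlapped (log2 fold change -0.26 ± 0.11, adjusted p = 0.186). Of 28 ion channel and connexin genes 4 rose and 2 fell (21.4% called, beside 4.71% of all genes). Without Tumor+NS replicate 5, 2 rose and 3 fell. The inward rectifiers Kcnj12 (log2 fold change 0.79 ± 0.18, adjusted p = 0.0139) and Kcnj8 (log2 fold change 0.55 ± 0.13, adjusted p = 0.019) rose, and Kcnd2, which carries the transient outward current (log2 fold change -0.82 ± 0.19, adjusted p = 0.0167), and the skeletal sodium channel Scn4a (log2 fold change -1.22 ± 0.27, adjusted p = 0.0149) fell. Atp1b1, the beta subunit of the sodium pump, rose (log2 fold change 0.40 ± 0.10, adjusted p = 0.0259), and Atp1a4, an alpha subunit best known from sperm, rose from a low level of 0.649 to 1.30 CPM (median 0.922) to 2.85, 2.06, 4.66, 2.73 and 1.48 CPM (log2 fold change 1.5 ± 0.30, adjusted p = 0.00744). Agtr1a, an angiotensin receptor (log2 fold change 0.66 ± 0.17, adjusted p = 0.0259), and Adcy6, a major adenylyl cyclase of the heart (log2 fold change 0.65 ± 0.17, adjusted p = 0.0344), rose too. Chosen after their values were seen, the cardiac factors Gata6 (log2 fold change 0.48 ± 0.11, adjusted p = 0.0167) and Myocd (log2 fold change 0.64 ± 0.12, adjusted p = 0.00483) and the cardiac protein Lrrc10 (log2 fold change 0.86 ± 0.18, adjusted p = 0.00848) were higher.

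In fuel metabolism, genes induced by fasting and fatty acids fell. Pdk4, the kinase that blocks pyruvate oxidation, read 218 to 1651 CPM (median 1003) in Tumor+NS and 159, 151, 114, 83.5 and 129.6 CPM in Tumor+DOX. All Tumor+DOX libraries were below the lowest Tumor+NS library, replicate 6 (log2 fold change -2.96 ± 0.51, adjusted p = 0.00276). Ucp3, a mitochondrial carrier, read 2.47 to 76.6 CPM (median 28.7) in Tumor+NS and 9.55, 4.79, 4.88, 5.18 and 5.97 CPM in Tumor+DOX, and the lowest Tumor+NS library, replicate 5, was under all 5 of them (log2 fold change -2.44 ± 0.55, adjusted p = 0.0143). Angptl4, an inhibitor of lipoprotein lipase (log2 fold change -2.47 ± 0.58, adjusted p = 0.0183), Cpt2, which reforms acyl-CoA inside mitochondria (log2 fold change -0.97 ± 0.24, adjusted p = 0.0229), and Acot2 (chosen after its value was seen, log2 fold change -0.85 ± 0.23, adjusted p = 0.041) fell too. In all, 5 of 42 fatty acid oxidation and PPAR target genes fell and 0 rose (11.9% called, beside 4.71% of all genes). Fabp3, the most abundant, just missed the threshold (log2 fold change -0.66 ± 0.20, adjusted p = 0.0568, and 0.0353 without Tumor+NS replicate 5). In Cpt2 and Fabp3 Tumor+NS replicates 5 and 6 lay near the Tumor+DOX libraries, well under the other 4 of their group.

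Of 40 genes of glycolysis, glycogen and glucose uptake 3 rose and 1 fell (10% called, beside 4.71% of all genes), and 5 and 2 without Tumor+NS replicate 5. The risen ones were Eno3, the muscle enolase (log2 fold change 0.46 ± 0.12, adjusted p = 0.0253), Ldhb (log2 fold change 0.33 ± 0.08, adjusted p = 0.0191) and Gpi1 (log2 fold change 0.27 ± 0.08, adjusted p = 0.0464), and Pdk1 fell (log2 fold change -0.33 ± 0.08, adjusted p = 0.0169). Gpd1, which links glycolysis to glycerol lipid synthesis and was chosen after its values were seen, rose from 27.1 to 34.9 CPM (median 29.8) to 62.2, 61.7, 63.2, 57.8 and 69.8 CPM, with no overlap (log2 fold change 1.04 ± 0.15, adjusted p = 0.000588). Among 50 nuclear-encoded respiratory chain genes 2 passed the test (4.0%, beside 4.71% of all genes). These were Cox6a2 (log2 fold change 0.30 ± 0.07, adjusted p = 0.0191) and Cox7b (log2 fold change 0.28 ± 0.07, adjusted p = 0.032). Fold changes were positive in 44 of the 50, and in 6459 of all 14170 genes. The list median was 0.09, or 0.14 without Tumor+NS replicate 5. None of the 13 mitochondrially encoded genes passed in edgeR or DESeq2, or had an unadjusted p under 0.05, and mt-Co1, the most abundant gene of every library, had a log2 fold change of -0.12 (adjusted p = 0.714).

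Among 37 antioxidant, glutathione and NRF2 target genes 3 rose, all of them glutathione transferases, which couple glutathione to reactive compounds. In the list as a whole 24 fold changes were negative, with a median of -0.08, or -0.01 without Tumor+NS replicate 5. Gstm2 read 96.4 to 138 CPM (median 114) in Tumor+NS and 185, 183, 151, 169 and 161 CPM in Tumor+DOX, without overlap (log2 fold change 0.56 ± 0.10, adjusted p = 0.00442). Gstm1 (log2 fold change 0.48 ± 0.10, adjusted p = 0.00848), its paralog and partly alike in sequence, and the mitochondrial Gstk1 (log2 fold change 0.49 ± 0.11, adjusted p = 0.0143) rose as well. The same list had 2 lower members, the carboxylesterase Ces1d (log2 fold change -1.61 ± 0.40, adjusted p = 0.0229) and the peroxiredoxin Prdx1 (log2 fold change -0.46 ± 0.12, adjusted p = 0.0255). Sult1a1, a phenol sulfotransferase, rose from 29.8 to 65.4 CPM (median 35.2) to 104, 151, 87.0, 75.3 and 91.2 CPM, with no overlap (log2 fold change 1.24 ± 0.23, adjusted p = 0.00495). Cyp1a1, the classic target of the aryl hydrocarbon receptor, read 0.181 to 1.27 CPM (median 0.503) in Tumor+NS and 3.02, 4.18, 5.66, 1.99 and 4.32 CPM in Tumor+DOX (log2 fold change 2.60 ± 0.71, adjusted p = 0.0388). Its groups did not overlap, but counts were low and its adjusted p was 0.0549 without Tumor+NS replicate 5. Nqo1, a target of both that receptor and NRF2, did not pass (log2 fold change 0.06 ± 0.12, adjusted p = 0.804).

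The other risen DEGs with the largest fold changes were spread over functions. Etv5, an ETS factor downstream of growth factor signaling, read 8.41 to 12.8 CPM (median 10.4) in Tumor+NS and 22.5, 28.2, 21.8, 14.2 and 28.2 CPM in Tumor+DOX with no overlap (log2 fold change 1.14 ± 0.17, adjusted p = 0.000588). Dcxr, a carbonyl reductase (log2 fold change 1.23 ± 0.20, adjusted p = 0.00194), Dpep1, a dipeptidase that cleaves leukotrienes (log2 fold change 1.10 ± 0.20, adjusted p = 0.00434), Plcd3, a phospholipase C (log2 fold change 1.20 ± 0.23, adjusted p = 0.00559), and Msc, the helix-loop-helix factor musculin (log2 fold change 1.47 ± 0.29, adjusted p = 0.00709), rose, each without overlap between groups. So did Tlcd3b (log2 fold change 1.49 ± 0.23, adjusted p = 0.0013), Nmral1 (log2 fold change 1.46 ± 0.29, adjusted p = 0.00752), Lad1 (log2 fold change 1.36 ± 0.29, adjusted p = 0.0106), Scgb1c1 (log2 fold change 1.25 ± 0.25, adjusted p = 0.00709) and the antisense transcript Tbx3os1 (log2 fold change 1.11 ± 0.20, adjusted p = 0.00434). Among the fallen, Tent5c, a poly(A) polymerase (log2 fold change -1.97 ± 0.36, adjusted p = 0.00443), went from 4.67 to 16.0 CPM (median 6.66) to 1.06, 3.33, 1.36, 2.62 and 2.07 CPM.

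**Figure D4:**
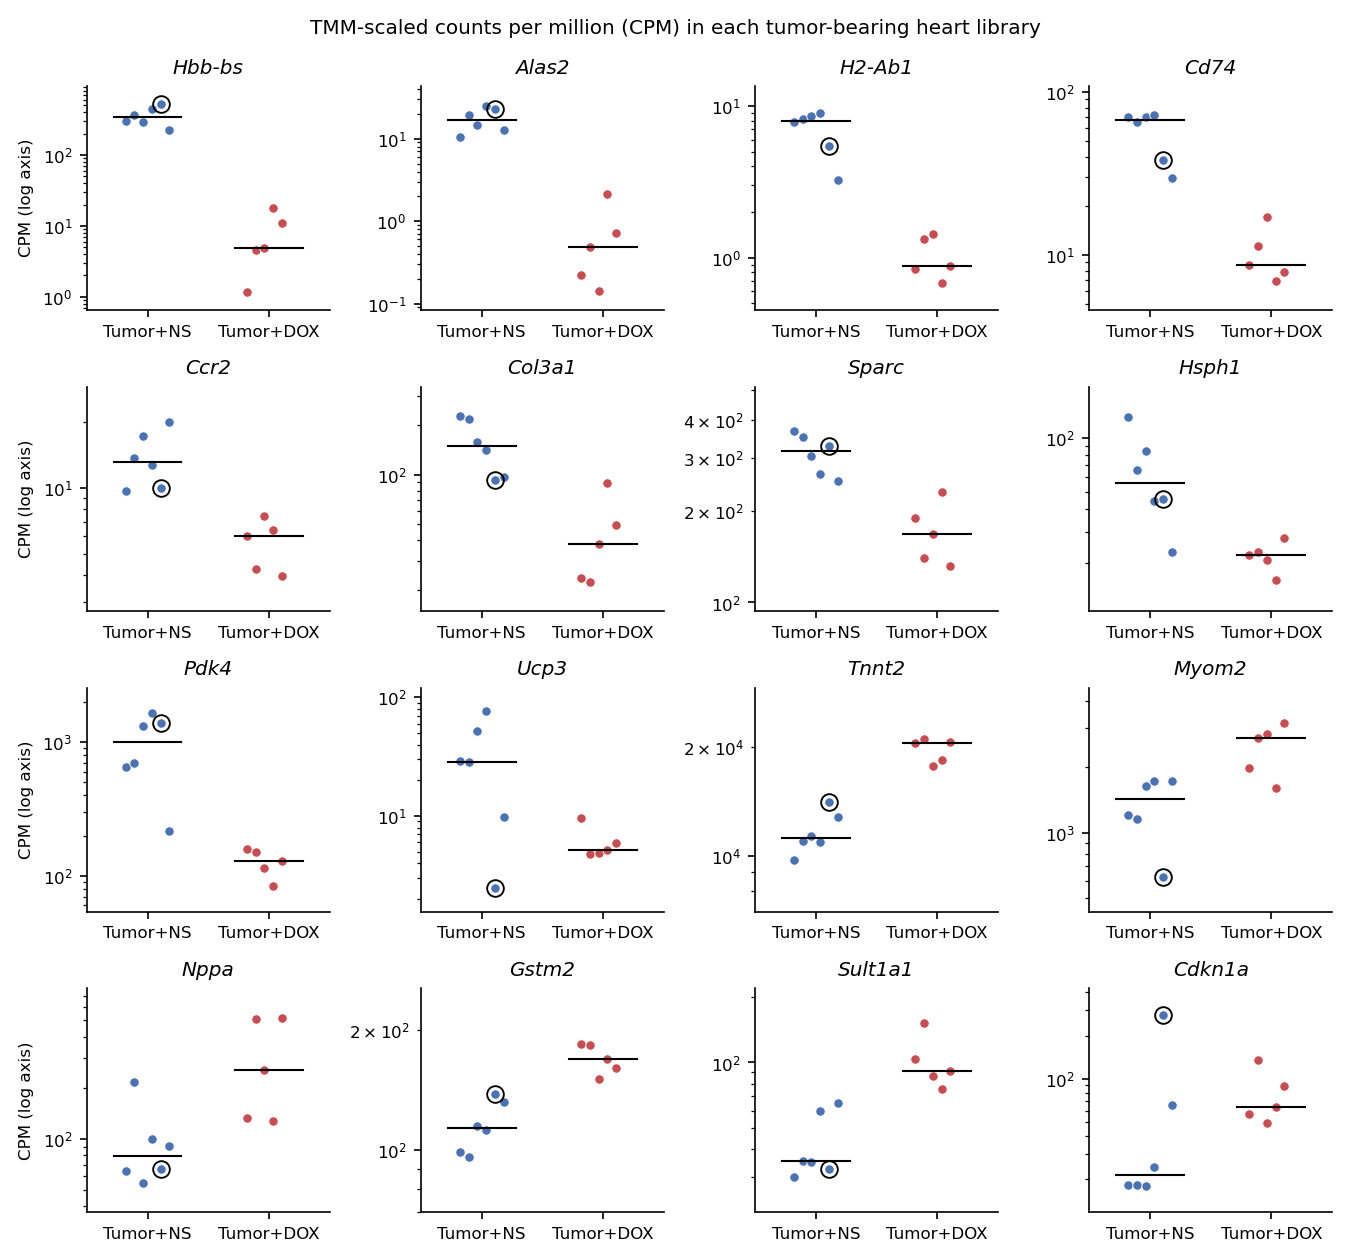
CPM of 16 genes (y axes, log scale) in the 6 Tumor+NS and 5 Tumor+DOX libraries, 1 point per library, with a bar at the group median and a ring around Tumor+NS replicate 5. The groups are apart for the globin, MHC class II, Pdk4, Tnnt2 and Gstm2 panels, while Ucp3, Nppa and Cdkn1a overlap and the ringed library is extreme in Ucp3, Myom2 and Cdkn1a.

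Other programs examined for DOX injury were the p53 targets, drug handling and iron. Of 30 genes of iron uptake, storage and heme breakdown 3 fell and 0 rose (10% called, beside 4.71% of all genes), and in the fit of the 11 libraries alone 1 fell. Of 26 p53 targets 1 rose (3.85%, and 2 genes without Tumor+NS replicate 5), Perp, a desmosomal protein, from 151 to 205 CPM (median 171) to 245, 248.7, 237, 254 and 294 CPM with no overlap (log2 fold change 0.53 ± 0.09, adjusted p = 0.0017). Cdkn1a, the cell cycle inhibitor p21, read 17.9 to 279 CPM (median 21.3) in Tumor+NS and 56.4, 134, 49.4, 63.3 and 89.0 CPM in Tumor+DOX. Tumor+NS replicate 5 at 279 CPM was above all Tumor+DOX libraries and replicate 6 at 65.6 CPM lay among them, while the other 4 were at 17.9 to 24.4 CPM. Its log2 fold change was 0.15 (adjusted p = 0.911) with all libraries and 1.46 (adjusted p = 0.0185) without replicate 5. Mdm2, another p53 target, did not pass (log2 fold change -0.16 ± 0.13, adjusted p = 0.524). Top2b, the topoisomerase that DOX poisons in heart muscle, had a log2 fold change of 0.03 (adjusted p = 0.782). Abcb4 was the 1 of 20 drug target, efflux and reductase genes that rose (5.0% called, beside 4.71% of all genes). Its log2 fold change was 0.51 ± 0.14 (adjusted p = 0.0348), and it was not called in the fit of the 11 libraries alone.

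No member passed edgeR's test among 28 ATF4 targets (4 at an unadjusted p under 0.05, 1 called by DESeq2 and 3 by voom with library quality weights), 37 Toll-like and NOD-like receptor genes (4, 1 and 3), 31 genes of lytic cell death, apoptosis and inflammasomes (3, 1 and 5), and 81 cytosolic ribosomal proteins (6, 0 and 10). Without Tumor+NS replicate 5 edgeR called 0 ATF4 targets, 1 receptor signaling gene, 1 cell death gene and 2 ribosomal proteins. In the cell death list the median log2 fold change was -0.17 with and -0.04 without that library, and Gsdmd, the pore former of pyroptosis, had 0.22 (adjusted p = 0.523). Ribosomal proteins had a median of 0.06 in tumor-bearing hearts (0.15 without that library), against 0.32 in hearts without a tumor, and the interaction was called in 5 of 81, beside 8.82% of all genes. The pathway terms in the deposited annotation were used as further lists, and since the study's authors chose them on these samples they are not independent evidence. Of 77 tested genes of antigen processing and presentation 15 fell and 1 rose (20.8% called), of 73 cell adhesion molecules 8 fell and 1 rose (12.3%), and of 58 genes of ECM-receptor interaction 5 fell and 1 rose (10.3%), beside 4.71% of all genes. Toll-like receptor signaling had 1 higher and 1 lower of 85 (2.35%), NOD-like receptor signaling 2 and 4 of 131 (4.58%), and JAK-STAT signaling 3 and 1 of 101 (3.96%), all under the share of all genes.

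In hearts without a tumor the contrast of DOX with NS called 5055 of the same 14170 genes (35.7%), 2506 higher and 2549 lower with TMM scaling, and 1387 higher and 3547 lower with library totals, where the median of all genes moved to -0.14. The contrasts with and without a tumor share no library. Of the 292 genes that rose in tumor-bearing hearts 203 (69.5%) also rose without a tumor, 86 were not called there and 3 fell. Of the 376 that fell 264 (70.2%) also fell without a tumor, 111 were not called and 1 rose. The difference between the responses, tested as an interaction over all genes, was called in 1250 genes (8.82%), and in 24 of the risen and 41 of the fallen genes.

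Several matrix genes fell less in tumor-bearing hearts than in hearts without a tumor. For Col1a2 the log2 fold change was -1.0 with and -2.12 without a tumor (interaction 1.12, adjusted p = 0.0315), and for Sparc -0.85 and -1.74 (interaction 0.88, adjusted p = 0.0154). Sparcl1, its relative and the most abundant matricellular gene, had -0.38 and -1.12 (adjusted p of the interaction 0.00796). Cd34, a surface protein of endothelial cells and fibroblasts, had -0.42 and -1.43 (adjusted p of the interaction 0.00683), and Ccl21a -1.22 and -2.35 (adjusted p of the interaction 0.0256). Of 23 collagen chains the interaction was called in 9, and the list median was -0.60 with and -1.43 without a tumor. The saline groups differed in level, with median collagen sums of 1264 CPM in Tumor+NS and 1636 CPM in NS. With DOX the medians were 863 CPM in Tumor+DOX and 779 CPM in DOX. The part of the lower starting level in the smaller fall was not tested.

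The heme enzyme Alas2 fell more with a tumor. Its level fell by 4.54 on the log2 scale with and by 2.02 without a tumor (interaction -2.51, adjusted p = 0.0354), while the interaction for Hbb-bs was not called (-5.50 and -3.40, adjusted p = 0.139). For MHC class II the list medians were -2.62 with and -3.08 without a tumor, and edgeR called the interaction in 0 of 5 genes, with 1 at an unadjusted p under 0.05 and 0 called by DESeq2.

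A few genes moved in opposite directions. Ssu2 read 0.965 to 2.98 CPM (median 1.60) in Tumor+NS and 5.14, 3.63, 3.15, 4.56 and 3.25 CPM in Tumor+DOX, with a log2 fold change of 1.13 with and -1.11 without a tumor (interaction adjusted p = 0.00796). Mfsd7a, a transporter of the major facilitator family, had 0.77 and -1.26 (interaction adjusted p = 0.00683). Tnp1, a transition protein of sperm chromatin, was counted 39 times over the Tumor+DOX libraries and 1 time over the Tumor+NS libraries, a ratio of 47.8 with a 95% counting interval of 8.09 to 1940, and its Tumor+DOX replicate 1 was at 0. Ehd4, a membrane trafficking protein, rose in both but less with a tumor (0.68 and 1.83, interaction adjusted p = 0.00978), and Dnajc3, a chaperone of the endoplasmic reticulum, fell with and rose without (-0.62 and 0.48, interaction adjusted p = 0.0128).

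**Figure D5:**
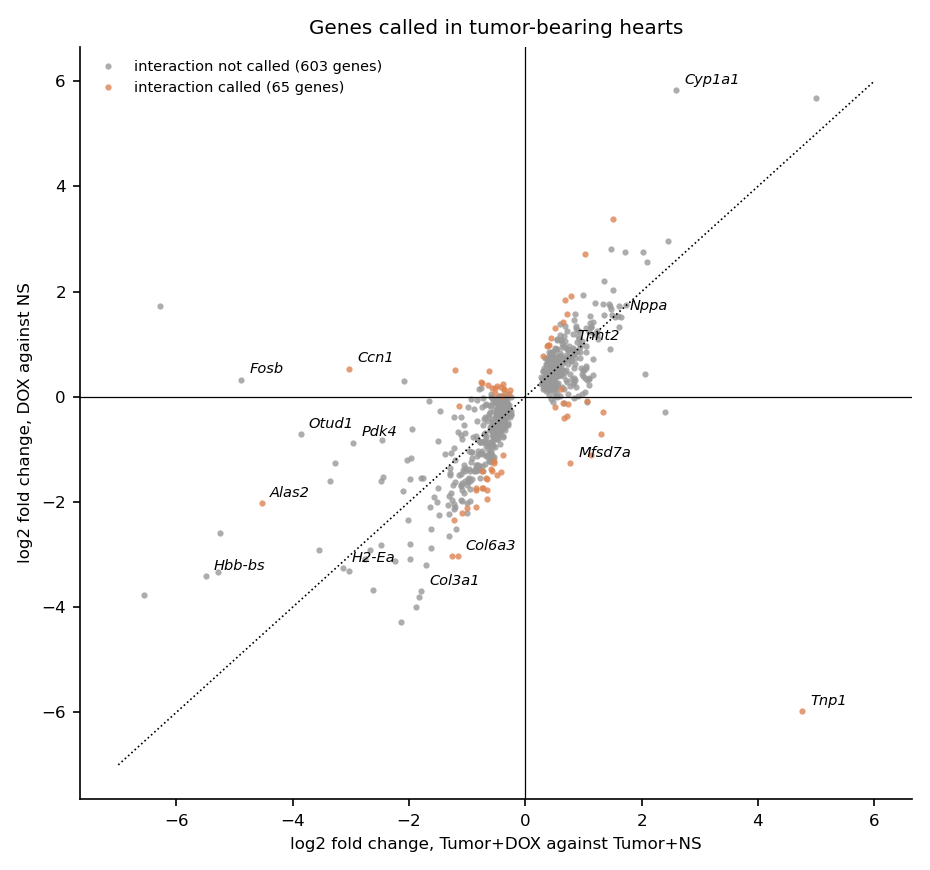
Log2 fold change with DOX in tumor-bearing hearts (x axis) and in hearts without a tumor (y axis) for the 668 genes called in tumor-bearing hearts, 1 point per gene. The dotted line marks equal changes, and orange points are the 65 genes with a called interaction (603 were not called). Most points lie in the lower left and upper right, and Tnp1 and Mfsd7a lie in the lower right.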

How the data were processed

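Bulk heart RNA was sequenced in 21 libraries. According to the labels RNA was purified with oligo(dT) or by rRNA depletion and read as paired ends of 150 bases, and the submitters' processing notes list cutadapt, FastQC, HISAT2, HTSeq 0.6.1, DESeq2 1.34.0 and GRCm39. The authors deposited 1 table with whole-number read counts per gene, not normalized, and FPKM values, and 100% of the FPKM values match the counts divided by gene length and library total to within rounding. The sample labels gave each library's group and number.

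Genes were kept where FPKM averaged 0.5 or more across the 11 tumor-bearing libraries, and their counts were scaled by TMM and fitted over all 4 groups in edgeR 4.0.16 (quasi-likelihood F-test, R 4.3.3), which shares 1 estimate of the spread. P-values were adjusted over all 14170 genes by Benjamini-Hochberg. A gene was called at an adjusted p under 0.05, and a DEG also changed at least 2-fold. The test was checked on simulated counts. Alternatives used DESeq2 1.42.0, limma 3.58.1 on log2 of the FPKM plus a pseudocount of 0.1 or 1, other scalings and filters, each library left out, and the replicate number as a block. Residuals of libraries with the same number correlated at -0.24 to 0.13, so the numbers do not pair the samples. Total counts of 13521200 to 18601445 per library set the precision of low genes, and counting intervals cover counting error only.

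Gene lists and members were chosen with earlier results of these data known. Named genes are the 15 risen and 15 fallen DEGs with the largest fold changes and no overlap between groups (predicted genes named Gm, Rik or by accession left out), the most abundant member of each list with up to 4 members of smallest p, Mfap4, Itgb6, Ucp3, Nppb, Ckm and Ckb, and the 10 called genes with the smallest interaction p. Atf3, Thbs2, Scara5, Isg15, Col1a1, Hspa1a, Hspa5, Prdx1, Mdm2, Top2b, Gsdmd, Cdkn1a, S100a8 and those said so in the text were chosen after their values were seen. Promoter windows are RefSeq sequence of GRCm38.p6, another build than the table's, so the coordinates were not combined. Some genes that meet the rule are not reported here.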

Additional observations from a re-analysis of the deposited data

Results flagged for a closer look

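Values that stood apart from the rest of their group were looked for in 53 genes and both tumor-bearing groups, 106 gene and group pairs, by Dixon's gap test, in which chance flags about 1 in 20 groups. It marked 13 values, 6 of them in Tumor+NS replicate 5. In that library Hspa1a (108 CPM), Ccn1 (577 CPM), Fosb (104 CPM), Otud1 (1120 CPM) and Nppb (997 CPM) were far above the other 5 Tumor+NS libraries, and Tnp1 (0.0603 CPM, 1 count) was the only value above 0. Tumor+NS replicate 6 was far below its group in Myh6 (14900 CPM), and Tumor+NS replicate 2 far above its group in Nppa (216 CPM). Within Tumor+DOX, replicate 4 was high in Alas2 (2.11 CPM) and Fosb (1.42 CPM), replicate 1 was high in Ucp3 (9.55 CPM) and at 0 CPM in Tnp1, and replicate 5 was high in Nppb (501 CPM). The cause of these values was not tested.

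EdgeR's interaction test, adjusted over all genes, called a different response to DOX with and without a tumor in 10 of the 53 genes examined. Over all genes tested it was called in 1250 (8.82%). Named genes were in part chosen by a small interaction p, so the count cannot be read against that share. The interaction is the log2 fold change with a tumor minus that without. It was positive, with a smaller fall or an opposite change with a tumor, for Ccl21a (1.13), Col1a2 (1.12), Lum (1.12), Sparc (0.88), Ssu2 (2.24), Mfsd7a (2.03) and Tnp1 (10.7, from few counts). It was negative for Alas2 (-2.51), Ccn1 (-3.57) and S100a8 (-4.32). Without Tumor+NS replicate 5 the interaction of Ccn1 was -1.81 (adjusted p = 0.00796), and each of the other 9 kept its direction and its call. S100a8, a calcium-binding protein of neutrophils, did not pass the test in tumor-bearing hearts (adjusted p = 0.892). It stood there at 141 to 1453 CPM in Tumor+NS and 245 to 1103 CPM in Tumor+DOX. Without a tumor S100a8 rose (log2 fold change 4.16, adjusted p = 0.00317). Levels of neutrophil genes were low there, and the list summed to 8.24 to 35.2 CPM in NS and 18.1 to 97.4 CPM in DOX.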

How the results depend on the processing

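The number of called genes (668) was 445 with library totals, 345 with the 11 libraries alone (187 higher, 158 lower), 419 by limma on log2(FPKM + 0.1), 1076 by DESeq2, 2486 by limma-voom with library quality weights and 132 at an adjusted p under 0.01 (226 without Tumor+NS replicate 5). With 1 library left out it ran from 265, lacking Tumor+DOX replicate 5, to 943, lacking Tumor+NS replicate 6. It was also over 1.5 times lower without Tumor+DOX replicates 1 (320), 2 (338) and 3 (348) and Tumor+NS replicates 1 (403), 2 (377) and 3 (410). DEGs (154) were 51 at a mean FPKM of at least 5, 88 with the 11 libraries alone, 46 by limma on log2(FPKM + 1), 328 by voom with weights and 58 at an adjusted p under 0.01, and with those same libraries left out 85 and 242, their extremes. Genes with a called interaction (1250) were 550 at a mean FPKM of at least 5, 2009 by DESeq2 and 54 at an adjusted p under 0.01 (293 without Tumor+NS replicate 5), and 611 (without DOX replicate 3) to 1697 (without DOX replicate 5) with 1 library left out. They were over 1.5 times fewer also without Tumor+DOX replicates 1 (672) and 3 (733), NS replicates 2 (721), 4 (738) and 5 (782) and DOX replicate 4 (771). With the replicate number as a block 145 genes were called, 71 of them DEGs, and the numbers do not pair the samples. Of 173 called genes examined one by one 46 kept their call under every alternative, and none changed direction. Medians of 16 of 59 lists moved under some alternative by more than 1 SD between libraries of the list's median level, 4 of them without Tumor+NS replicate 5, a library that the SD includes. Changes in genes of few counts are limited by depth.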

Other observations

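Other functions held called genes too, all chosen after their values were seen. The actin-binding thymosins fell, Tmsb4x with a log2 fold change of -0.74 ± 0.14 (adjusted p = 0.00426) and Tmsb10 with -0.86 ± 0.13 (adjusted p = 0.0013), and both fell more without a tumor (-1.42 and -1.77, with edgeR's interaction at 0.68, adjusted p = 0.0354, and 0.92, adjusted p = 0.0128). Enzymes that build glycerolipids, Gpam (-1.08 ± 0.25, adjusted p = 0.0172) and Gpat3 (-0.85 ± 0.17, adjusted p = 0.00811), and the NADPH-producing Me1 (-0.59 ± 0.13, adjusted p = 0.0144) were lower. Car14, a membrane carbonic anhydrase, read 75.8 to 101 CPM in Tumor+NS and 142 to 216 CPM in Tumor+DOX (log2 fold change 0.94 ± 0.13, adjusted p = 0.000464). The mitochondrial ADP/ATP carrier Slc25a4 (0.54 ± 0.10, adjusted p = 0.00487) and the growth kinase Mtor (0.53 ± 0.09, adjusted p = 0.00195) rose, and Egln3, an oxygen-sensing hydroxylase, fell (-1.05 ± 0.17, adjusted p = 0.0017).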
